A study of Rattus norvegicus with 20 samples.

Results

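The genes examined here are 10 feedback inhibitors of the ERK (extracellular signal-regulated kinase) pathway, the dual-specificity phosphatases Dusp1, Dusp4, Dusp5, Dusp6 and Dusp14, the Sprouty genes Spry1, Spry2 and Spry4, and the Sprouty-related genes Spred1 and Spred2. They were picked by symbol from the 31038 genes of a raw count matrix, and all 10 were among the 16605 genes that passed a filter on low counts (5 reads or more in 10 or more of the libraries). The matrix holds RNA-seq of the medial prefrontal cortex (mPFC) of 20 male Sprague-Dawley rats, with 1 poly(A)-selected library per rat. According to the study's methods the tissue came from a single hemisphere. The 10 LSD-treated rats received 0.16 mg/kg LSD intraperitoneally on alternate days over 90 days, the 10 controls received sterile saline, and the series describes the tissue as taken after 3 weeks without drug. All rats were between 6 and 8 weeks old when treatment began, were housed one to a cage and carried no genetic change in their labels. The study's methods give a higher starting age and a longer interval after the last dose than the labels, whose values are used here. The comparison asks whether expression of these inhibitors still differed weeks after the last dose.

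Growth factors and neurotrophins bind receptor tyrosine kinases, which load the small GTPase RAS with GTP, and RAS then drives the kinases RAF, MEK and ERK in turn. Active ERK switches on transcription factors and immediate early genes, and among its targets are the genes of its own inhibitors, so that a bout of signalling is followed by its own brake. Dusp proteins remove the activating phosphates from ERK and related kinases, Sprouty proteins act between the receptor and RAF, and Spred proteins bring the RAS inhibitor neurofibromin to the membrane. In cortical neurons ERK is activated by synaptic activity and by neurotrophins, and transcripts such as Dusp1 and Dusp6 are often read, beside Fos and Egr1, as signs of recent activity.

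Of the promoters in RefSeq (GRCr8, from 250 bases before to 50 bases after a start site), those of 9 of the 10 members were found, in 12 windows, and Dusp4 had no entry. The upstream stretches of Dusp1 and Dusp5 are shown because both genes varied between rats together with ERK-responsive transcripts, as described further on, and because their windows hold motifs of activity-regulated factors. The Dusp1 stretch lies on the plus strand at chr10:17184673-17184759 and its capitals mark, in order, a TGACG core, the full CRE palindrome TGACGTCA bound by CREB and the E-box CACGTG. The Dusp5 stretch lies on the plus strand at chr1:262543684-262543731 and its capitals mark 2 adjoining CArG boxes, the motif bound by serum response factor, and a CRE core read from the opposite strand.
Dusp1: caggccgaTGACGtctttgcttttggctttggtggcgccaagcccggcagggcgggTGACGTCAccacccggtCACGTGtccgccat
Dusp5: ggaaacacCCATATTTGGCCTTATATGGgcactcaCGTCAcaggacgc
The full CRE was found, on either strand, in 1.83% of all 33469 promoter windows, the CRE core TGACG (which the full CRE contains) in 21.2%, the E-box in 6.42% and the CArG box in 1.64%. The Dusp1 palindrome began 124 bases before the start site, and the Dusp5 CArG boxes began 82 and 72 bases before it. The CArG box was added to the search after the promoters were seen. The CRE core was also matched upstream in windows of Dusp14, Spry2 and Spred2, members with little likeness to ERK-responsive transcripts. The ETS core CCGGAA, which is bound by ETS factors, some of them ERK substrates, and is held by 15.0% of all windows, was matched upstream in windows of Dusp14, Spry2 and Spry4. The AP-1 site (TGACTCA or TGAGTCA, in 4.63% of all windows) was matched in a window of Dusp14 alone among the members. None of the motifs searched was matched in the windows of Dusp6, Spry1 and Spred1. Yet Dusp6 was the member with the highest median r to the ERK-responsive transcripts (0.647, described further on). A match describes these letters and is not a measured binding site.

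Most of the feedback inhibitors did not differ detectably between LSD-treated rats and controls. Levels are given in RPM, the reads of a gene per 1000000 reads on genes after TMM scaling. Spred1 was higher in LSD-treated rats by 1.15-fold, Dusp14 was lower at 0.820 of the control level, and the other 8 members did not pass the threshold of an adjusted p of 0.05 (edgeR's quasi-likelihood test, adjusted over all 16605 genes). The 2 calls among 10 members compare with 15.0% of all genes tested that were called, 6.48% higher and 8.54% lower, so the share is near that of genes at large. The median log2 fold change was 0.06 over the members and 0.002 over all genes, with 6 members on the positive side and 50.4% of all genes. The members' median was 0.001 without control rat 9 and 0.118 without LSD rat 1, the extremes of the single omissions. The direction of the calls over all genes depended on scaling, with 1076 higher and 1418 lower genes under TMM and 1504 higher and 858 lower under scaling by total counts. When the trend of counts with the genomic span of genes was taken out of each library, 568 genes were higher and 1107 lower. Over single omissions the calls ran from 1566 without LSD rat 8 and 1662 without control rat 4 to 3548 without control rat 2.

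**Figure D1:**
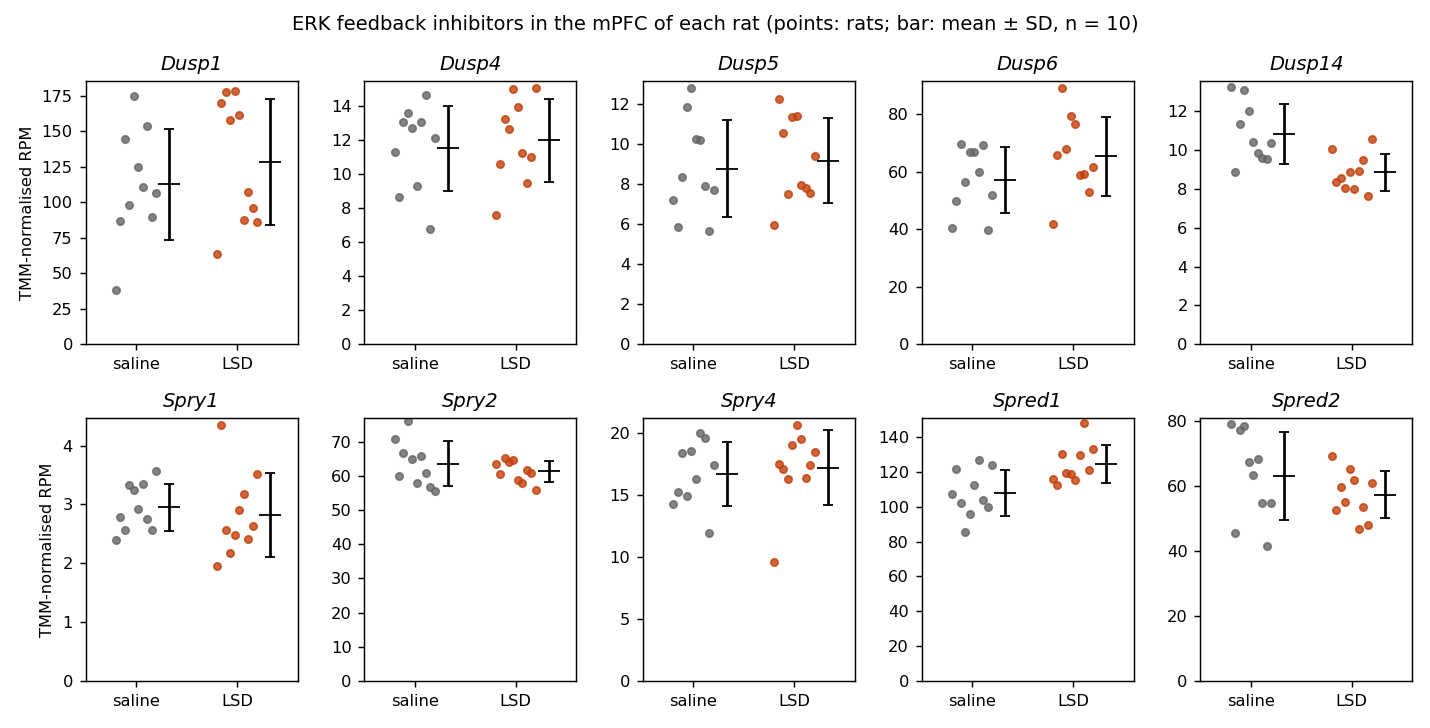
TMM-normalised RPM (linear axes from 0) of each feedback inhibitor in every rat, with grey points for the 10 controls, orange points for the 10 LSD-treated rats and bars for the mean ± SD. The LSD-treated rats lie above the control median in 10 of 10 rats for Spred1 and in 1 of 10 for Dusp14. That count is also 1 of 10 for Spred2, which was not called. The groups overlap over most of their range for Spred2 and the other members not called.

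Library totals lay between 11098076 and 25552681 reads on genes, with medians of 20271086 in LSD-treated rats and 16815424 in controls. Neuronal markers were present in every library, with 7 excitatory neuron markers summing to 3365 to 4473 RPM in LSD-treated rats and 3445 to 5202 RPM in controls. Of 6 markers of oligodendrocyte precursors 2, Olig1 and Sox10, were lower in LSD-treated rats, the list summing to 310.3 to 435.2 RPM against 346.4 to 508.5 RPM. In the same list Pdgfra (log2 fold change 0.05), Gpr17 (-0.05), Cspg4 (-0.16) and Olig2 (-0.15) did not pass the test. Of 6 interneuron markers Gad2 and Vip were higher and Slc32a1 and Sst lower, and of 6 astrocyte markers Slc1a2 was higher. No marker of oligodendrocytes, microglia, endothelial and mural cells, meninges and choroid plexus or striatal neurons passed the test. All 7 striatal markers nevertheless had estimates below 0 (log2 fold changes -1.06 to -0.27, edgeR adjusted p from 0.0671 to 0.145), summing to 264.5 to 535.9 RPM in LSD-treated rats and 301.5 to 777.4 RPM in controls, as did all 6 oligodendrocyte markers (-0.48 to -0.22), summing to 2232 to 5761 against 2195 to 7479 RPM. In tissue RNA, fewer cells of a type and less RNA per cell cannot be told apart, and the part of cell composition in the member results was not tested.

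Spred1, which couples RAS to neurofibromin, ranged from 112.7 RPM through a median of 120.3 to 148.0 RPM in LSD-treated rats and from 85.63 through 105.6 to 127.1 RPM in controls. Every LSD-treated rat exceeded the control median and 4 of 10 exceeded all controls, yet the ranges overlapped. The highest and lowest LSD-treated rats, rats 8 and 2, had libraries of 25089120 and 18991816 reads. The highest and lowest controls, rats 7 and 4, had 16509557 and 14781608 reads. Whether Spred1 levels followed library depth was not tested. The mean was 124.4 ± 10.8 RPM against 107.9 ± 13.3 RPM (SD, n = 10 each), a log2 fold change of 0.20 (SE 0.0668, edgeR adjusted p = 0.0415). The call was close to the threshold. It was lost when any of 11 single rats was left out (LSD rats 3, 4, 7, 8 and 10 and control rats 1, 3, 4, 5, 8 and 9), with a log2 fold change of 0.17 to 0.23 over all 20 omissions and an adjusted p of up to 0.0836. It was also lost when the trend with gene span was taken out (log2 fold change 0.14, adjusted p = 0.136), and when both rats numbered 1 were left out (adjusted p = 0.0515).

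Dusp14, a small phosphatase without the ERK-docking domain of the other Dusp members, ranged from 7.632 through 8.727 to 10.55 RPM in LSD-treated rats and from 8.891 through 10.39 to 13.28 RPM in controls. Every control exceeded the LSD median, and 5 of 10 LSD-treated rats lay below all controls. The mean was 8.85 ± 0.936 RPM against 10.84 ± 1.53 RPM (SD, n = 10 each), a log2 fold change of -0.29 (SE 0.0823, edgeR adjusted p = 0.0235). The call rested on 130 to 267 reads per library and was held in 18 of 20 single omissions. It was lost without control rat 1 (adjusted p = 0.0509) or control rat 4 (adjusted p = 0.0511) and, with no filter on low counts, reached an adjusted p of 0.0528. The matrix also lists a Dusp14-like gene, Dusp14l1, and whether reads shared by the 2 genes affected the counts of Dusp14 was not tested.

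Dusp1, which inactivates the stress kinases p38 and JNK as well as ERK, was the most variable member. LSD-treated rats ranged from 63.44 through 132.3 to 178.2 RPM and controls from 37.85 through 108.6 to 174.7 RPM. The groups overlapped almost completely, with rat 1 the lowest and rat 5 the highest of each group. The log2 fold change was 0.19 (SE 0.216, edgeR adjusted p = 0.594) and lay between 0.088, without control rat 1, and 0.281, without control rat 5, over the single omissions. The residual SD between rats of a group, 0.574 on the log2 scale, was larger than that of 99.0% of the genes tested, for which the median was 0.178. Among LSD-treated rats the values lay apart, rats 2 to 6 between 157.6 and 178.2 RPM and rats 1 and 7 to 10 between 63.44 and 107.0 RPM, whereas the controls filled the gap with 124.5, 144.1 and 153.4 RPM. Rats 7 to 10 had the 4 deepest libraries of the LSD group (22770382 to 25552681 reads), and rat 1, the lowest, had the shallowest (16346629 reads). The part of depth in this pattern was not tested.

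Dusp6, the cytoplasmic phosphatase most selective for ERK, ranged from 41.68 through 63.76 to 89.08 RPM in LSD-treated rats and from 39.63 through 58.17 to 69.5 RPM in controls. In this gene 8 of 10 LSD-treated rats exceeded the control median and 3 exceeded all controls, but the lowest rats of both groups lay together. The log2 fold change was 0.20 (SE 0.123, edgeR adjusted p = 0.292), as large as that of Spred1 with a larger error. Dusp4 and Dusp5, nuclear phosphatases induced by ERK, were at 11.98 ± 2.44 and 9.17 ± 2.11 RPM in LSD-treated rats and at 11.52 ± 2.50 and 8.767 ± 2.41 RPM in controls (SD, n = 10 each). Their log2 fold changes of 0.06 (SE 0.133, edgeR adjusted p = 0.791) and 0.08 (SE 0.151, edgeR adjusted p = 0.779) were smaller than their errors. For Dusp4 the direction turned without control rat 9 (log2 fold change -0.003).

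**Figure D2:**
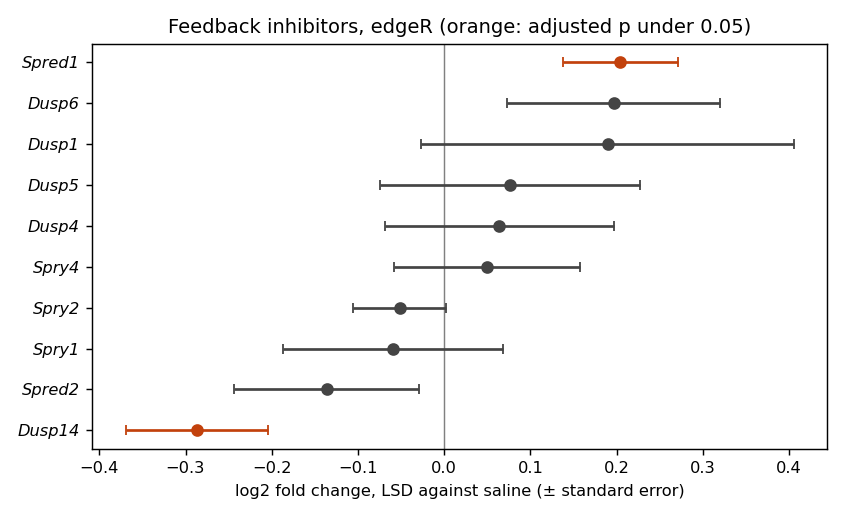
Log2 fold change of each feedback inhibitor, LSD-treated rats against controls, with its standard error from edgeR (n = 10 each) and orange for an adjusted p under 0.05. Dusp1, Dusp6 and Spred1 have similar estimates near 0.2, but the error bar of Dusp1 is 0.216 and that of Spred1 0.0668.

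The Sprouty genes were similar between the groups. Spry2 was the steadiest member, ranging from 55.74 through 61.19 to 65.24 RPM in LSD-treated rats and from 55.64 through 62.91 to 75.99 RPM in controls (log2 fold change -0.05, SE 0.054, edgeR adjusted p = 0.559). Spry4 ranged from 9.551 through 17.47 to 20.67 RPM against 11.93 through 16.84 to 20.03 RPM (log2 fold change 0.05, SE 0.108, edgeR adjusted p = 0.803). LSD rat 1 stood apart for Spry4, since the next rat of its group was at 16.27 RPM. Spry1 was counted with only 31 to 89 reads per library and was at 2.82 ± 0.708 against 2.949 ± 0.401 RPM (SD, n = 10 each; log2 fold change -0.06, SE 0.128). The estimates for Spry1 and Spry2 turned positive when the trend with gene span was taken out (0.01 and 0.02). Spred2, the relative of Spred1, ranged from 46.91 through 57.43 to 69.2 RPM in LSD-treated rats and from 41.49 through 65.4 to 79.17 RPM in controls, with 1 of 10 LSD-treated rats above the control median and a log2 fold change of -0.14 (SE 0.107, edgeR adjusted p = 0.414). Spred1 and Spred2 thus had estimates of opposite sign, and the difference between the genes was not tested.

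The spread between rats was shared by part of the family. LSD rat 1 was the lowest of its group for 6 members (Dusp1, Dusp4, Dusp5, Dusp6, Spry1 and Spry4), and control rat 9 was the lowest for 5 (Dusp4, Dusp5, Dusp6, Spry4 and Spred2). For the 45 pairs of members, log2(RPM + 1) was centred within each group, so that a difference between groups cannot make a correlation, and p-values came from 100000 permutations of rats within groups, two-sided. Of these pairs 12 were positively correlated at a Benjamini-Hochberg adjusted p under 0.05, 9 of them by Spearman's rho as well, and no pair was negatively correlated. The values of a rat share a library and its scaling. Of all genes tested, the share with r over 0.5 to a member lay between 1.6% for Dusp1 and 17.0% for Spred2. How many pairs of other genes would pass the same threshold was not tested.

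**Figure D3:**
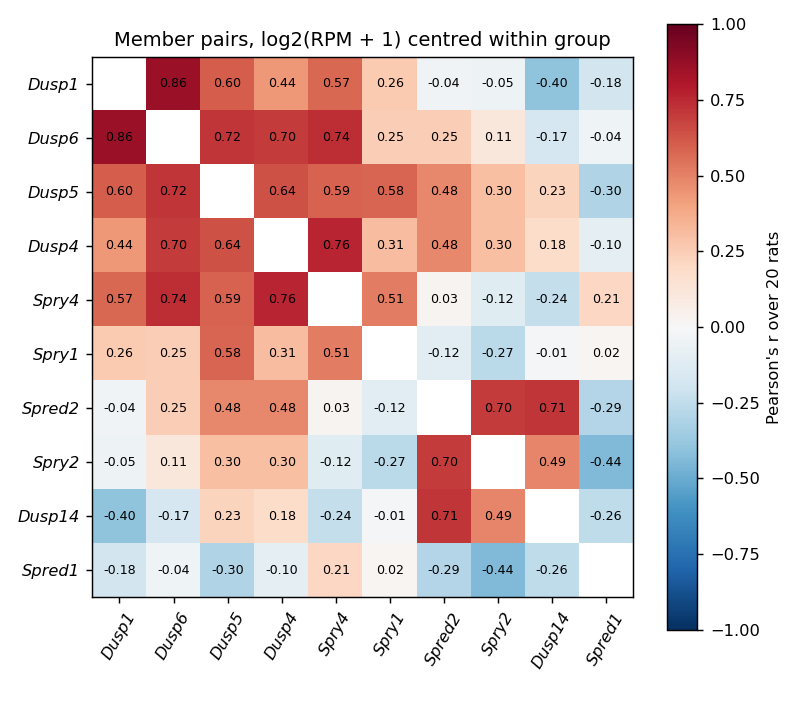
Pearson's r between each pair of feedback inhibitors over 20 rats, after centring log2(RPM + 1) within group, from blue (negative) to red (positive). Dusp1, Dusp4, Dusp5, Dusp6 and Spry4 form a red block with r from 0.437 to 0.862, Spred2 correlates with Dusp14 and Spry2, and Spred1 has no r above 0.21.

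Dusp1 and Dusp6 were the closest pair (r = 0.862, rho = 0.863, permutation p = 1e-05 for both, the smallest that the permutations can give, adjusted p = 0.00045), and r was 0.812 without the 2 rats farthest from the median of Dusp1. The relation was present in each group alone, with r = 0.892 (rho = 0.867, permutation p = 0.00025 and 0.00229, n = 10) in LSD-treated rats and r = 0.840 (rho = 0.867, permutation p = 0.00038 and 0.00217, n = 10) in controls. Dusp5 with Dusp6 gave r = 0.718 and rho = 0.671 (permutation p = 0.00066 and 0.00229), with 0.755 without the farthest 2 rats. Dusp4 with Spry4 gave r = 0.762 and rho = 0.636 (permutation p = 0.00022 and 0.00367), but r fell to 0.506 without the 2 farthest rats. Over the 10 pairs among Dusp1, Dusp4, Dusp5, Dusp6 and Spry4, a group chosen after the values were seen, r was between 0.437 and 0.862 with a median of 0.667. Much of that rested on the rats with the lowest values. Of these 10 pairs 9 passed the threshold with all rats and 4 without LSD rat 1. Without LSD rat 1 and control rat 9 together 1 of all 45 pairs passed, that of Dusp1 and Dusp6 (r = 0.887), and the median r of the 10 pairs was 0.502.

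A second set of correlations joined Spred2 with Dusp14 (r = 0.712, rho = 0.708, permutation p = 0.00124 and 0.00137) and with Spry2 (r = 0.699, rho = 0.732, permutation p = 0.00311 and 0.00108). Without the 2 farthest rats r was 0.611 and 0.671. Correlation at this level was not particular to the family. Spred2 had r over 0.5 with 17.0% of all genes tested, Spry2 with 15.6% and Dusp14 with 6.0%. In controls alone r was 0.826 and 0.810 and in LSD-treated rats alone 0.455 and 0.313 (n = 10 each), and the difference between the groups was not tested. This set was not separate from the first once LSD rat 1 was left out, when Spred2 also correlated with Dusp4 (r = 0.705) and Dusp5 (r = 0.657, adjusted p = 0.0321 and 0.0328). Without both rats numbered 1 the pairs of Spred2 with Dusp14 and Spry2 no longer passed the threshold, and those with Dusp4 (r = 0.750), Dusp5 (r = 0.777) and Dusp6 (r = 0.711) did. Spred1, the member higher in LSD-treated rats, was not correlated with any other member at an adjusted p under 0.05.

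The genes whose pattern over the 20 rats was most like that of a member, searched over all genes tested and so given without a p, differed sharply between members. Dusp1 was closest to Junb (r = 0.985, rho = 0.959), Fos (r = 0.981, rho = 0.962) and Arc (r = 0.960, rho = 0.923), immediate early genes of neuronal activity, and r stayed at 0.972, 0.966 and 0.911 without the farthest 2 rats. Dusp6 was closest to Trib1 (r = 0.941), Nr4a1 (r = 0.914) and Egr1 (r = 0.893), each on the list of ERK-responsive transcripts described below. Dusp4 was closest to the AP-1 gene Fosl2 (r = 0.874), then to Kdm6b (r = 0.865) and Dnajb5 (r = 0.845). Dusp5 was closest to Oas3 (r = 0.887), Stat5b (r = 0.839) and Igsf3 (r = 0.837). Spry4 was closest to Zfp275 (r = 0.834), Cdkn1a (r = 0.818) and Nr4a3 (r = 0.798). For Spry4 these fell to 0.595, 0.504 and 0.665 without the farthest 2 rats. LSD rat 1 was the lowest of its group for Fos (29.41 RPM), Junb, Egr1, Nr4a1 and Arc, and control rat 1 was the lowest of its own for Fos (11.65 RPM), Junb, Nr4a1 and Arc. Control rat 9 ranked 2 or 3 of 10 for these genes. Neither Fos nor Junb differed detectably between the groups (log2 fold changes 0.23 and 0.18, edgeR adjusted p = 0.563 and 0.551).

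Over a list of 43 ERK-responsive transcripts the median r was 0.647 for Dusp6, 0.600 for Dusp1, 0.553 for Dusp5, 0.472 for Dusp4 and 0.451 for Spry4, against medians between -0.01 and 0.012 over all genes. Among the 100 genes most like each member, this list held 24 for Dusp6, 22 for Dusp1, 11 for Spry4, 10 for Dusp5 and 7 for Dusp4. Spry1, Spry2 and Spred2 had none of the list among their 100 likest genes, and Dusp14 and Spred1 had 1 each, with median r of -0.132 and -0.157. Both members called between the groups were thus among those with little likeness to the list.

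**Figure D4:**
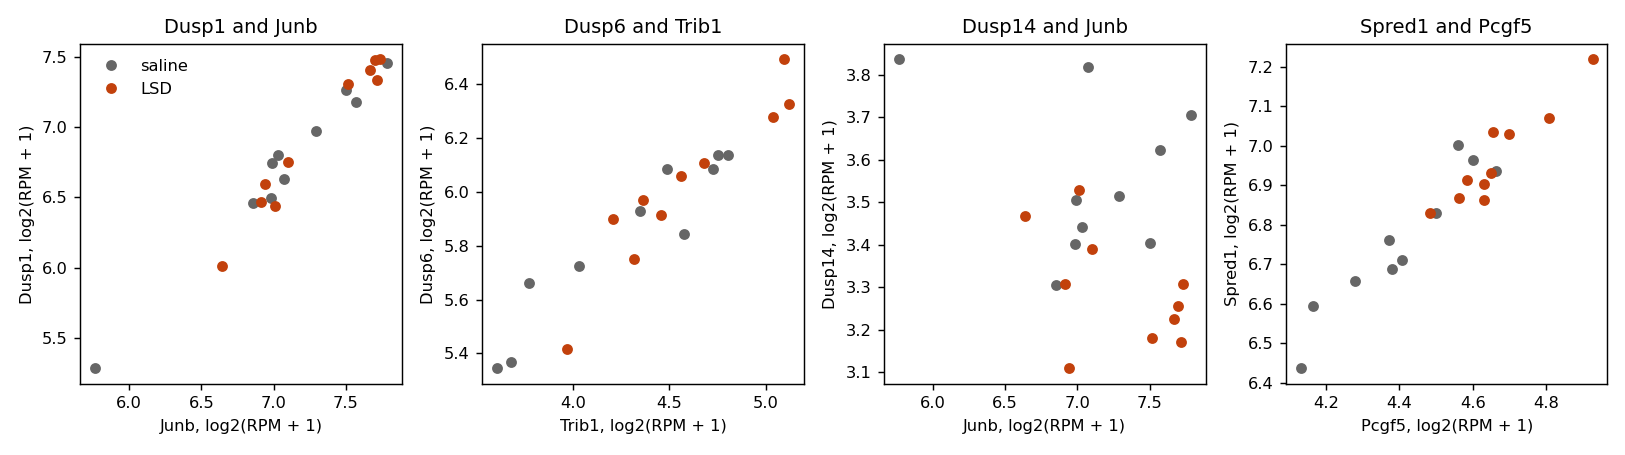
Log2(RPM + 1) of a member (vertical) against another gene (horizontal), 1 point per rat, grey for controls and orange for LSD-treated rats. Dusp1 with Junb and Dusp6 with Trib1 follow a single line for both groups (r = 0.985 and 0.941 within groups). Dusp14 with Junb shows no such line, and 5 of 10 LSD-treated rats lie below all controls for Dusp14. Spred1 with Pcgf5 follows a line along which the LSD-treated rats lie higher.

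Spred1 was closest to Pcgf5, a Polycomb component (r = 0.945, rho = 0.937), and was also like Csnk1a1, casein kinase 1 alpha (r = 0.899, rho = 0.806). Both were higher after LSD as well, by log2 fold changes of 0.26 and 0.28 (edgeR adjusted p = 0.0201 and 0.0237). Spred2 was closest to Creg2 (r = 0.930), whose log2 fold change was -0.03. Dusp14 had weaker likeness, with r of 0.791 for LOC108348154 and 0.777 for both Coa6, an assembly factor of cytochrome oxidase, and Ankef1. Without the 2 farthest rats r was 0.694, 0.688 and 0.860. Their log2 fold changes differed in sign, at -0.44, -0.55 and 0.36, of which that of Coa6 passed the test (edgeR adjusted p = 0.00854).

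Upstream of the inhibitors, 47 of 50 receptor tyrosine kinases and ligands passed the filter, of which 4 rose and 2 fell. The ligands Fgf2 (log2 fold change 0.59), Hgf (0.51) and Bdnf (0.46) and the neuregulin receptor Erbb4 (0.56) were higher, and Pdgfa (-0.25) and the FGF receptor Fgfr1 (-0.21) were lower. The share called, 12.8%, was below the 15.0% of all genes, and the median log2 fold change was -0.03. Fgfr1 was called in 7 of 20 single omissions (adjusted p up to 0.0807, without LSD rat 8) and the others in all 20. Without control rat 2, when calls over all genes were also at their highest, the list had 10 calls.

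Of 44 genes of the cascade from adaptors and RAS to ERK and its kinase targets, 43 were tested, and 5 rose and 5 fell. The share called was 23.3%, against 15.0% of all genes, and the median log2 fold change was 0.03. The kinase Braf (0.28), the exchange factors Rasgrp1 (0.22) and Sos2 (0.18) and the ERK substrates Rps6ka3 (0.24) and Rps6ka5 (0.20) were higher. Mapk3, which encodes ERK1, was lower at 158.7 ± 17.7 against 201.9 ± 20.6 RPM (SD, n = 10 each; log2 fold change -0.35, edgeR adjusted p = 0.00469), as were Hras (-0.35), Frs3 (-0.27), Map2k2 (-0.26) and Mknk2 (-0.19). In single omissions Rasgrp1 and Mknk2 were called in 6 of 20, Sos2 in 7, Rps6ka5 in 9 and Frs3 in 19, with adjusted p of up to 0.0803, 0.0957, 0.0814, 0.0723 and 0.0511, and the other 5 in all 20. The even split depended on the processing, with 10 higher and 4 lower under scaling by total counts and 1 higher and 8 lower after removal of the trend with gene span, a step that lowered the higher calls over all genes from 1076 to 568. The count was 5 without LSD rat 8, 6 without any of control rats 1, 3, 4, 5 and 9, and 16 without control rat 2.

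Among 47 tested of 48 other negative regulators of the pathway 5 rose and 4 fell. The share called was 19.1%, against 15.0% of all genes, and the median log2 fold change was -0.07. Nf1, which encodes neurofibromin, the partner of the Spred proteins, was higher at 96.0 ± 9.13 against 73.73 ± 13.6 RPM (SD, n = 10 each; log2 fold change 0.38), and so were the RAS GTPase activators Rasal2 (0.33) and Rasa1 (0.28) and the ubiquitin ligases Cbl (0.24) and Cblb (0.23). The phosphatases Dusp23 (-0.53) and Dusp26 (-0.26), the RAF inhibitor Pebp1 (-0.29) and the ERK anchor Pea15 (-0.23) were lower. Cblb was called in 9 of 20 single omissions (adjusted p up to 0.0782) and Rasal2 in 11 (up to 0.0654), both highest without LSD rat 4, and the others in all 20. After removal of the trend with gene span 1 was higher and 5 were lower, beside the fall in higher calls over all genes under the same step.

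All 43 ERK-responsive transcripts were tested, of which 5 rose and 2 fell (16.3% called, against 15.0% of all genes). Their median log2 fold change of 0.11 was above the 0.002 of all genes, with 30 on the positive side, and was 0.044 without control rat 1 and 0.160 without LSD rat 1. Homer1 (0.30), Etv1 (0.26), Elk4 (0.25), Bhlhe40 (0.22) and Plk2 (0.17) were higher, and Phlda1 (-0.31) and Srf (-0.28), which encodes the factor that binds CArG boxes, were lower. The list was drawn up by textbook role, and whether its transcripts, Elk4 and Srf among them, respond to ERK here was not tested. Bhlhe40 was called in 11 of 20 single omissions (adjusted p up to 0.0754, without control rat 1), Plk2 and Srf in 14 (up to 0.0597 and 0.0549), Homer1 in 19 (0.0504 without LSD rat 8) and the others in all 20. The count was 3 without LSD rat 8, 4 without control rat 4, and 3, all higher, after removal of the trend with gene span. In the same list Fos, Junb, Arc, Trib1, Nr4a1 and Egr1, the transcripts most like Dusp1 and Dusp6, did not pass the test.

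**Figure D5:**
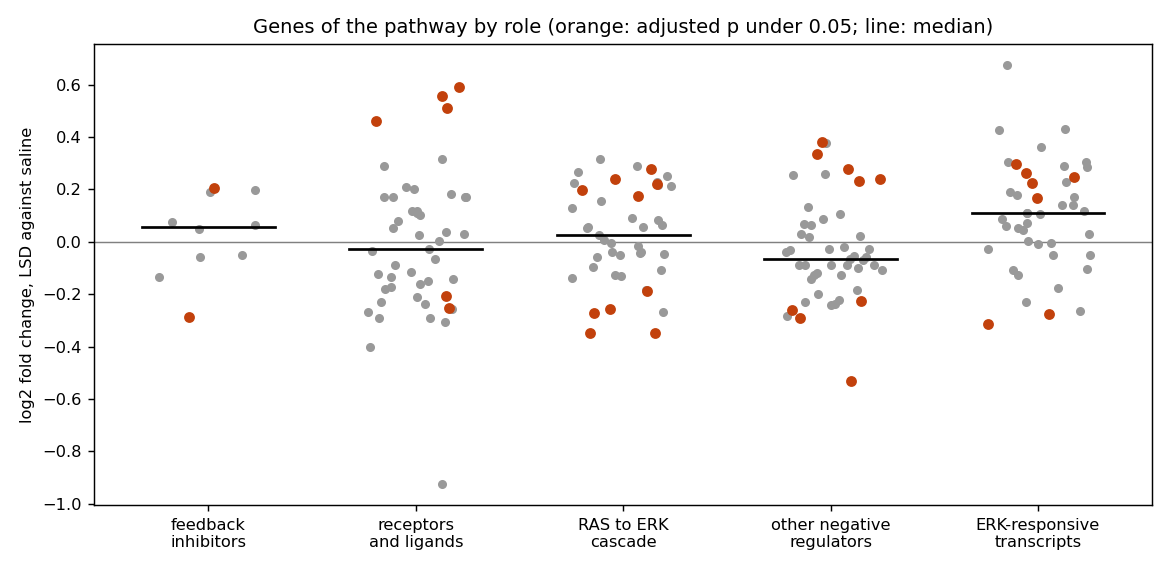
Log2 fold change, LSD-treated rats against controls, of every tested gene by its role in the pathway, with orange for an edgeR adjusted p under 0.05 and a black line at each list's median. The medians lie at 0.06 for the feedback inhibitors, -0.03 for receptors and ligands, 0.03 for the cascade, -0.07 for other negative regulators and 0.11 for ERK-responsive transcripts, and each list holds calls in both directions.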

How the data were processed

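The authors deposited raw counts per gene, made from trimmed reads with HISAT2 on rn6 and HTSeq, without normalisation or filter. The strand setting and gene annotation were not given in the sources used here. The matrix ends in 5 entries without a name (25.5% to 29.0% of its reads), which were left out. Groups came from the sample labels. Genes that reached 5 reads in 10 or more of 20 libraries were tested in R 4.3.3 with the quasi-likelihood test of edgeR 4.0.16 and TMM factors, as LSD-treated rats against controls without covariates, with Benjamini-Hochberg adjustment over 16605 genes and a threshold of 0.05. SE is the absolute log2 fold change divided by the root of F. RPM were divided by TMM-scaled library sizes. On simulated counts for this comparison the steps were checked before use. Alternatives were DESeq2 1.42.0, other scalings and filters, 1 surrogate variable (sva 3.50.0), the replicate number as a block, equal depth, centred offsets for gene span (GRCr8 in place of rn6, found for 89.9% of genes tested) and each rat left out. The members, the 4 pathway lists and the markers were chosen with earlier results of these data known. Named genes are all members, the genes of each list past the threshold (at most 6 per direction) and up to 3 genes most correlated with a member. The CArG box was added after the promoters were seen. Precision is set by the spread over 10 rats, and whether any rats shared a litter or extraction day was not stated in the labels. A gene among those most correlated with a member is not reported here.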

Additional observations from a re-analysis of the deposited data

Results flagged for a closer look

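Spry4 in LSD rat 1 stood apart from the rest of its group, at 9.551 RPM against 16.27 RPM in the nearest rat, a gap of 0.604 of the group's range (above Dixon's 95% critical value). It was the only such value in 20 tests (10 members in 2 groups), in which chance alone gives about 1. The same rat was the lowest of its group for 6 members and for Fos, Junb, Egr1, Nr4a1 and Arc, and its library of 16346629 reads was the shallowest of the LSD group.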

How the results depend on the processing

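Of the alternatives with all rats, the number of members called was 1 in place of 2 with no filter on low counts (Dusp14 lost) and with centred span offsets (Spred1 lost), and it was 2 or 3 under the others. The 2 calls with centred span offsets and the replicate block were Dusp6 (0.27, SE 0.066, edgeR adjusted p = 0.0195) and Dusp14, so Spred1 was lost there too. Spry1 and Spry2 turned positive with centred span offsets (0.011 and 0.023). With these and the replicate block Spry1 was at 0 and Spry2 at 0.026. ERK-responsive calls were 3 in place of 7 with centred span offsets (7 with these and the replicate block), while calls over all genes went from 2494 to 1675; other negative regulators had 3 higher and 6 lower with both. The labels do not tie same-numbered rats together, and the data give only a hint that they do: r was over 0.1 in 6 of 10 pairs (-0.259 to 0.467), with a mean of 0.145 against -0.0157 for other numbers, and 1 of 10 LSD-treated rats correlated best with its own number. With the replicate block, calls were 3 for members (Dusp6 added, log2 fold change 0.19, SE 0.063, edgeR adjusted p = 0.045, and 0.0601 without both rats numbered 1; the SE of Dusp1 went from 0.216 to 0.129), 18 for the cascade, 12 for ERK-responsive transcripts and 2961 over all genes in place of 2494. Leaving out 1 rat at a time gave 0 to 2 calls for members, 5 to 10 for receptors and ligands, 5 to 16 for the cascade, 3 to 8 for ERK-responsive transcripts, 7 to 12 for other negative regulators and 1566 to 3548 over all genes, with 1566 without LSD rat 8 and 1662 without control rat 4, and a log2 fold change of -0.003 to 0.119 for Dusp4, the lowest without control rat 9. Leaving out both rats numbered 1, chosen after the data were seen, gave 1 member called (Dusp14, or Spred1 with the replicate block) and 7 correlated pairs, and leaving out LSD rat 1 and control rat 9, also chosen afterwards, gave 1 pair. Single omissions gave 8 to 13 pairs. For the 32 named pathway genes no alternative reversed a direction, and 152 of 1024 values no longer passed the threshold. The cause of these changes was not tested. Members with few reads, such as Spry1, allow only coarse estimates, and no test here separates a small difference from none.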
